A study of Mus musculus with 8 samples.

Results

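Mouse chromosome 15 was followed along its length in chromatin immunoprecipitation sequencing (ChIP-seq) of HA-tagged histone H3. Its members were the 9820 bins of 10 kb, of 245206 such bins on chromosomes 1 to 19 and X, whose mean over the 4 HA libraries was at least 0.5 RPM, the reads of a bin scaled to a common library size. They cover 98.2 Mb of chr15:3000001-103480000 in the mouse build mm9 and are joined by 505 of the 8375 H3.3K36M peaks and 13 of the 73 H3.1K36M peaks in the authors' lists. Of 9831 rows of 10 kb on the chromosome, 11 lay under that limit. The member nearest the limit had a mean of 0.515 RPM and the nearest row outside it 0.476 RPM. The chromosome was picked because its H3.3K36M/H3.3WT ratio was already known to be low, so its position among chromosomes in that ratio is a description, and what is described is how the ratio runs along it.

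The libraries came from C3H10T1/2 cells, a mesenchymal progenitor line derived from C3H mouse embryos, between passages 10 and 15. Each of the 4 lines stably expressed 1 FLAG-HA-tagged histone, namely H3.3K36M, H3.3WT, H3.1K36M or H3.1WT, and the HA antibody reads only the tagged histone and not the cells' own H3. Each line gave 1 HA library, so differences between lines could not be checked against replicates, a line cannot be told apart from its histone, and intervals printed here are exact (Clopper-Pearson) 95% intervals that cover counting error only. Groups follow the genotype and description fields, since the sample titles of the H3.3 ChIPs start with H3.1 and a protocol entry mentions Cbx2 where the descriptions give HA.

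H3.1 is the H3 variant that the CAF-1 chaperone places behind replication forks. H3.3 is placed outside replication as well, by HIRA at active genes and regulatory elements and by ATRX and DAXX in heterochromatin, so H3.3 ChIP-seq usually rises over active domains while H3.1 is flatter. The K36M change puts methionine at lysine 36, inhibits the methyltransferases that act there, and in H3.3 is the typical mutation of chondroblastoma, a tumour of cartilage. Mouse chromosomes have their centromere at the low-coordinate end, so low coordinates are called proximal and high ones distal. Chromosome 15 carries, among others, the Hoxc homeobox cluster and the type II keratin genes, but gene positions in mm9 were not used here and no gene is placed on a region.

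Chromosome 15 held a smaller share of H3.3K36M reads than of H3.3WT reads, and the shares in the H3.1 lines lay close to each other. The HA libraries held 38783917 reads (H3.3K36M), 46749609 (H3.3WT), 41705735 (H3.1K36M) and 35487141 (H3.1WT), recovered from the RPM steps. Of the reads in used bins, chromosome 15 held 4.58% (interval 4.58 to 4.59) in H3.3K36M and 5.62% (5.61 to 5.63) in H3.3WT. It held 4.42% (4.41 to 4.43) in H3.1K36M and 4.33% (4.32 to 4.34) in H3.1WT, while 4.00% of the used bins lie on it. By share of reads in all used bins, H3.3WT was thus furthest from 4.00%, with the H3.3K36M library nearer the H3.1 pair. Which H3.3 library stood apart depended on the bins used, as given below for bins at or above the median signal.

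The bin levels give the same order. The median bin on chromosome 15 held 3.39 RPM in H3.3K36M cells against 4.21 RPM in H3.3WT cells, where the median of all used bins was 3.004 RPM in H3.3K36M cells against 2.77 RPM in H3.3WT cells. In the H3.1 lines it held 4.17 RPM in H3.1K36M cells against 4.10 RPM in H3.1WT cells, with medians over all used bins of 3.64 and 3.65 RPM. The spread along the chromosome was wide in both H3.3 libraries, with a 10th percentile of 2.12 RPM in H3.3K36M cells against 1.98 RPM in H3.3WT cells and a 90th percentile of 8.68 RPM in H3.3K36M cells against 11.2 RPM in H3.3WT cells. In the H3.1 libraries the same limits were 3.04 and 6.12 RPM in H3.1K36M and 2.86 and 5.97 RPM in H3.1WT. Tagged H3.3 thus varied more along chromosome 15 than tagged H3.1 did, in both states.

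Expressed as the median log2 ratio of bins minus that of all used bins, the H3.3K36M/H3.3WT value of chromosome 15 was -0.30, and the other chromosomes ran from -0.14 on chromosome 11 to 0.26 on chromosome 18. The H3.1K36M over H3.1WT ratio was 0.04 on the same scale, within the -0.08 to 0.11 of the other chromosomes. Of the bins of chromosome 15, 568 or 5.78% were at least 2-fold lower in H3.3K36M than in H3.3WT, where the share over all used bins was 1.81% and the other chromosomes had 0.200% to 2.80%. Another 53 or 0.540% were at least 2-fold higher, with 2.94% over all used bins and 1.40% to 8.88% on the other chromosomes. With a pseudocount of 1 RPM in place of 0.1 RPM the counts were 272 lower and 18 higher. Because the chromosome was chosen on this contrast, nothing is read from these shares, and they set the scale for what follows.

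The 98.2 Mb were then cut into 1 Mb windows, of which 100 held at least 50 used bins, against 2537 such windows in the genome. A median window held 15709.5 reads in H3.3K36M and 25566.5 in H3.3WT, so the counting interval of a window is a few percent wide. The H3.3 ratio of windows ran from -1.28 to 0.43 on the log2 scale around a median of -0.23. Of the 100 windows, 77 lay below the median of all windows of the genome, which was 0.06 and by construction has 50% of windows under it. On the other chromosomes that share was 17.0% to 72.3%. The low ratio was therefore present over most of the chromosome but not evenly: the counting interval lay wholly below the genome's median in all 77 of these windows and wholly above it in 17 others.

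**Figure D1:**
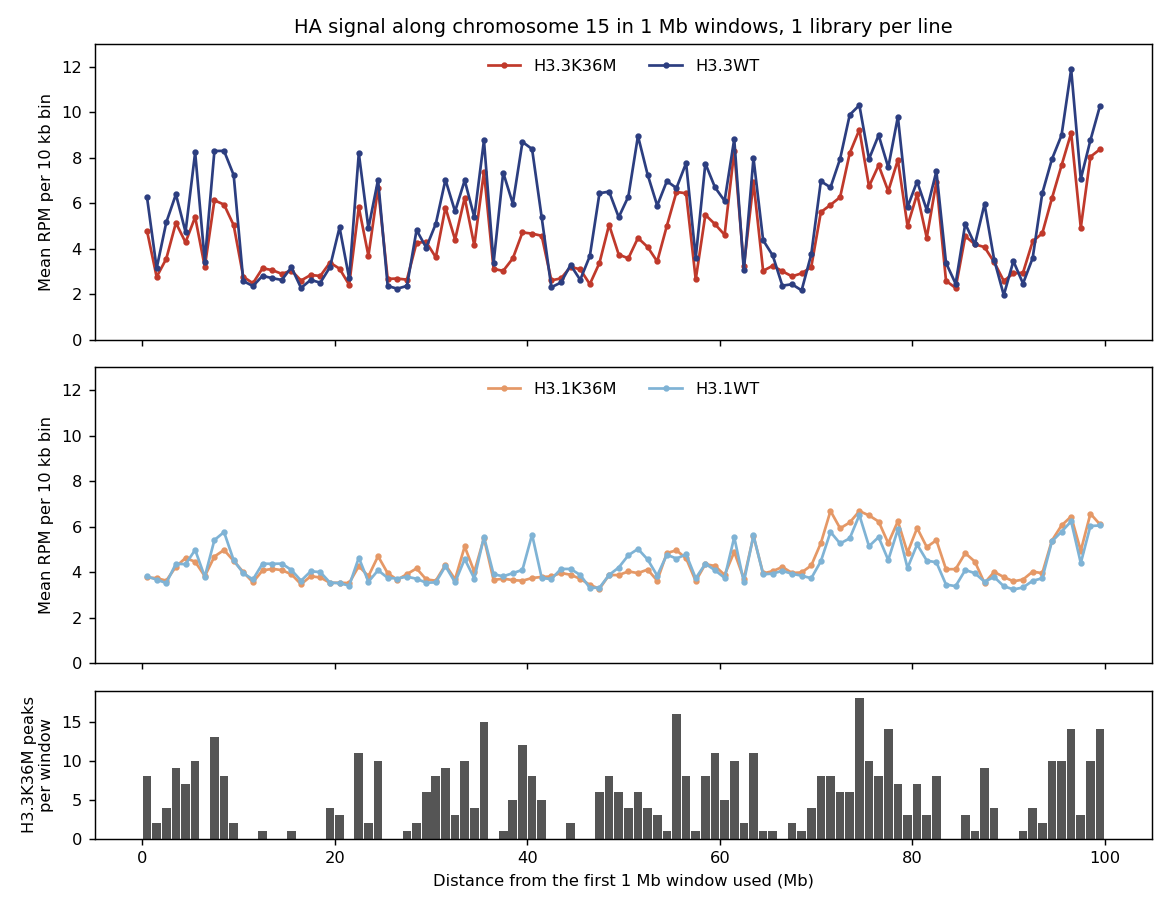
Mean RPM per 10 kb bin in each 1 Mb window of chromosome 15 for H3.3K36M and H3.3WT (top) and for H3.1K36M and H3.1WT (middle), and H3.3K36M peaks per window (bottom), against distance in Mb from the first window used, with 1 library per line. The H3.3 lines rise and dip together in broad blocks, H3.3WT stands above H3.3K36M in 76 of the 100 windows, and the H3.1 curves run flatter.

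The spread of these windows was wide but not outside that of other chromosomes, with an SD of 0.33 where the others had 0.18 to 0.36. The 10th percentile was -0.62 and the 90th 0.18. At a log2 ratio of -0.5 or lower stood 18 windows of chromosome 15, and the other chromosomes had 0 to 13 each. Over all windows of the genome 4.38% reached that depth. Over the 10 kb bins of the chromosome, the log2 ratios of bins a set distance apart had an r of 0.78 at 10 kb, 0.61 at 100 kb, 0.32 at 500 kb, 0.17 at 1 Mb and -0.05 at 5 Mb, a description over bins that share both libraries. Bins up to 100 kb apart thus had like ratios, and this likeness was weaker at 500 kb and small beyond 1 Mb. A similar fall with distance was measured elsewhere. On chromosomes 11 and 19 r was 0.742 and 0.735 at 10 kb, 0.23 and 0.25 at 500 kb, and 0.08 on each at 1 Mb. The profile is thus a general shift with deep stretches laid over it.

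Windows were split by their tagged H3.3 content, taken as the log2 ratio of H3.3 over H3.1 averaged over both states, at the median of all windows. Of the windows of chromosome 15, 64 were H3.3-rich and 36 H3.3-poor; elsewhere 49.4% were rich. Rich windows averaged more H3.3 in both states, with a median of 5.04 RPM in H3.3K36M cells against 6.99 RPM in H3.3WT cells. Poor windows had 2.86 RPM in H3.3K36M cells against 2.66 RPM in H3.3WT cells. In RPM, H3.3K36M was thus below H3.3WT in the rich windows and about level with it in the poor windows. On the other chromosomes poor windows had medians of 2.73 RPM in H3.3K36M cells against 2.17 RPM in H3.3WT cells. Near-equal levels in the poor windows of chromosome 15 were therefore also a lower ratio than elsewhere.

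Of the 64 rich windows, 62 lay below the genome's window median, with a median log2 ratio of -0.35. Of the 36 poor windows, 15 did, with a median of 0.09. The rich windows held 497 of the 568 low bins, 7.92% of their bins, and the poor windows 71, or 2.03%. The split uses the same H3.3 libraries as the ratio, so the link between them is partly built in.

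That link was not particular to chromosome 15. On the other chromosomes rich windows had a median of -0.08 and poor windows 0.31, so rich windows were lower there too. Chromosome 15 was lower than the others by 0.27 on the log2 scale in rich windows and by 0.21 in poor windows. Its median of -0.35 in rich windows lay below every other chromosome's, which ran from -0.18 to 0.13. In poor windows its 0.09 was level with the lowest of the others, which ran from 0.10 to 0.63. The 2 chromosomes nearest to it in H3.3 level had medians of -0.13 in rich and 0.25 in poor windows on chromosome 11, and of -0.02 and 0.49 on chromosome 19.

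Across the 100 windows the ratio and the H3.3 level, the mean log2 RPM of both H3.3 libraries, had a Pearson r of -0.49 and a Spearman rho of -0.49. These values are a description, since ratio and level share both libraries, and on the other chromosomes r ran from -0.69 to -0.45. With the level of the H3.3WT library alone r was -0.66, and with that of the H3.3K36M library alone it was -0.25. With the H3.3 over H3.1 content r was -0.64, where the others had -0.77 to -0.45. How the ratio ran with H3.3 content along chromosome 15 was therefore within the range of the other chromosomes.

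This was followed at the level of single bins by sorting all used bins into 10 equal classes of H3.3 content and comparing chromosome 15 with the other chromosomes class by class. With classes by H3.3 over H3.1 content, chromosome 15 was lower in all 10, by 0.19 to 0.30 on the log2 scale. It lay below every other chromosome in 7 of these 10 classes, with at most 1 chromosome lower in the rest. With classes by H3.3 level the differences ran from -0.33 to -0.04 around a median of -0.23, and chromosome 15 was lowest in 7 classes, with up to 7 chromosomes lower in the rest. Classes by the H3.3WT level alone gave -0.37 to -0.02, with chromosome 15 lowest in 5 classes and up to 7 chromosomes lower in the rest. Classes by the H3.3K36M level alone gave -0.32 to -0.23, with chromosome 15 lowest in 8 and up to 2 chromosomes lower in the rest. The ratio was thus lower in every class of each sorting, though in some middle classes the difference was near 0. In class 6 it was -0.04 by H3.3 level and -0.02 by H3.3WT level. In class 1, the poorest, it was -0.33 and -0.37. Because the chromosome was picked on this ratio, its rank within classes is a description and tests nothing. Each sorting also uses H3.3 libraries that form the ratio, so the classes are not independent of it.

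**Figure D2:**
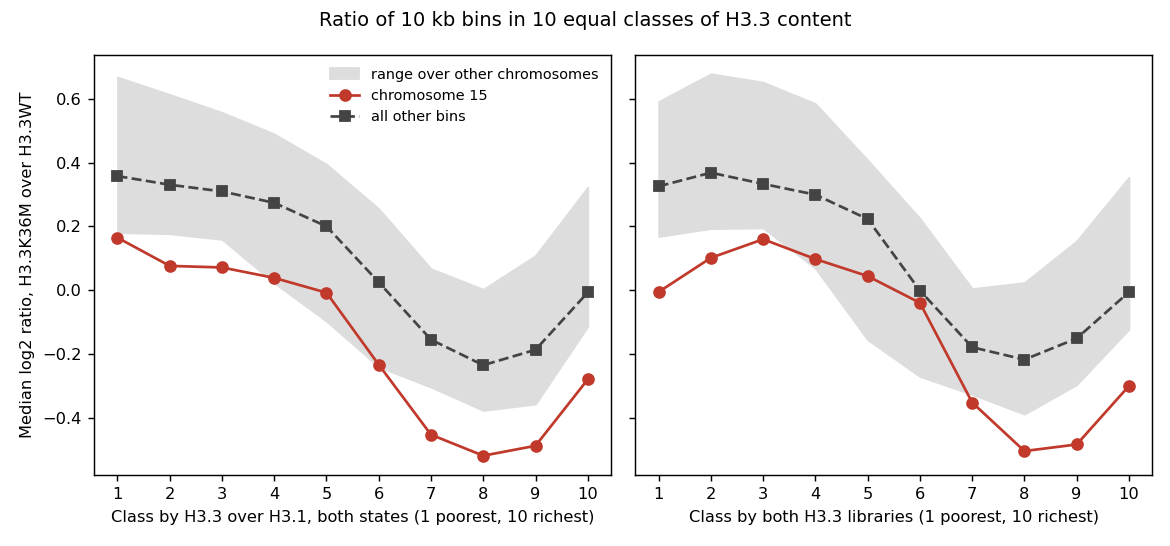
Median log2 H3.3K36M/H3.3WT ratio of 10 kb bins in 10 equal classes, from poorest (1) to richest (10), for chromosome 15 (red), all other bins (dark squares) and the range of the other chromosomes (grey). In the classes by H3.3 over H3.1 content chromosome 15 runs 0.19 to 0.30 below the other bins, at the lower edge of the grey band or under it.

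In neighbouring windows the states formed blocks, and the H3.3 ratio changed at many of their borders. The longest poor block, chr15:13000001-23000000, had 2.90 RPM in H3.3K36M cells against 2.68 RPM in H3.3WT cells, a log2 ratio of 0.11. The poor block chr15:28000001-31000000 had 2.66 RPM in H3.3K36M cells against 2.32 RPM in H3.3WT cells, a log2 ratio of 0.20. Further along, the poor blocks chr15:45000001-50000000 and chr15:67000001-73000000 had -0.04 and -0.05, and chr15:91000001-95000000 had 0.05. Averaged over the block, poor blocks of at least 3 Mb thus had nearly equal H3.3 in both lines, or slightly more in H3.3K36M. Single windows differed more, from -0.59 to 0.23 in chr15:45000001-50000000 and from -0.53 to 0.43 in chr15:67000001-73000000.

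All rich blocks of at least 3 Mb had less H3.3 in H3.3K36M, but by unequal amounts. The rich block chr15:40000001-45000000 had 4.10 RPM in H3.3K36M cells against 7.15 RPM in H3.3WT cells, a log2 ratio of -0.80. The next rich block, chr15:50000001-60000000, had 4.56 RPM in H3.3K36M cells against 6.81 RPM in H3.3WT cells, or -0.58. The longest rich block, chr15:73000001-86000000, had 6.69 RPM in H3.3K36M cells against 7.85 RPM in H3.3WT cells, or -0.23, although its H3.3WT level was the higher of these. The remaining rich blocks of that length ran from -0.48 at chr15:10000001-13000000 to -0.25 at chr15:31000001-39000000. H3.3 level in the WT line did not order the rich blocks by their ratio.

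The deepest stretches lay near the middle. An interval was drawn after the profile was seen, from the first to the last group of at least 2 neighbouring windows at -0.5 or lower, which gave chr15:40000001-57000000. Its 17 windows hold 17.1% of the chromosome's bins and 60.2% of its low bins, 342 of 568. Low bins made up 20.3% of the interval and 2.78% of the rest of the chromosome. Since the interval was drawn on the ratio itself, these shares describe it and test nothing.

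Inside it the mean level was 3.66 RPM in H3.3K36M cells against 5.71 RPM in H3.3WT cells, and in the rest of the chromosome 4.73 RPM in H3.3K36M cells against 5.55 RPM in H3.3WT cells. The medians of bins were 3.06 RPM (H3.3K36M) and 4.71 RPM (H3.3WT) inside, and 3.50 RPM (H3.3K36M) and 4.06 RPM (H3.3WT) outside. H3.3K36M was thus lower inside than outside by both measures, and H3.3WT was higher inside, more so by the median. The bin median relative to all used bins was -0.68 inside and -0.25 outside. Without the interval, the rest of chromosome 15 still lay lower than any other chromosome, with 63 of its 83 windows below the genome's window median. Within the interval 3 stretches carried the depth: chr15:40000001-44000000 at -0.93, chr15:49000001-51000000 at -0.80 and chr15:52000001-57000000 at -0.81.

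The lowest window, chr15:40000001-41000000, had 3.02 RPM in H3.3K36M cells against 7.34 RPM in H3.3WT cells, 2.43-fold lower in H3.3K36M (2.38 to 2.48). The window chr15:54000001-55000000 had 4.47 RPM in H3.3K36M cells against 8.95 RPM in H3.3WT cells, 2.003-fold lower. These were the only windows of the chromosome at least 2-fold lower. The 3 next lowest, starting at positions 50000001, 42000001 and 43000001, were 1.91-fold, 1.85-fold and 1.80-fold lower. All 5 lie in the interval and are H3.3-rich.

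At the other end, the window chr15:71000001-72000000 had 2.91 RPM in H3.3K36M cells against 2.16 RPM in H3.3WT cells, 1.35-fold higher in H3.3K36M (1.31 to 1.38). The window chr15:92000001-93000000 had 2.58 RPM in H3.3K36M cells against 1.95 RPM in H3.3WT cells, 1.32-fold higher. The window chr15:95000001-96000000, at 1.20-fold higher, was the single rich window among the 5 highest, with 4.31 RPM in H3.3K36M cells against 3.58 RPM in H3.3WT cells. No window was 2-fold higher.

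The low bins were joined into runs of touching bins. The 568 low bins formed 262 runs, of which 156 were single bins and 24 were at least 50 kb long. These 24 held 37.1% of the low bins, and over the genome the share was 28.3%. Of the genome's 153 low runs of that length, 15.7% lay on chromosome 15, which held 12.8% of the genome's low bins. The 53 high bins formed 50 runs, the longest 30 kb. Extreme runs are ranked on the same reads that give their folds, so the folds tend to be overstated.

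The longest low run, chr15:54240001-54520000, spanned 280 kb and had 3.44 RPM in H3.3K36M cells against 9.13 RPM in H3.3WT cells, 2.65-fold lower in H3.3K36M (2.56 to 2.76). The H3.1 lines also differed there, with 3.94 RPM in H3.1K36M cells against 5.31 RPM in H3.1WT cells. The run chr15:40470001-40710000, 240 kb long, had 3.05 RPM in H3.3K36M cells against 10.2 RPM in H3.3WT cells, 3.35-fold lower (3.21 to 3.49). There the H3.1 lines ran the other way, with 3.26 RPM in H3.1K36M cells against 2.81 RPM in H3.1WT cells. The difference in the 240 kb run was thus absent from the H3.1 lines, while that in the 280 kb run was accompanied by a smaller one of the same direction.

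A further run, chr15:40790001-40950000, lies 80 kb beyond and was 3.26-fold lower, with 2.92 RPM in H3.3K36M cells against 9.53 RPM in H3.3WT cells. Joined across the gap, chr15:40470001-40950000 held 46 low bins among 48, at 3.03 RPM in H3.3K36M cells against 9.64 RPM in H3.3WT cells. No bin of it overlaps an H3.3K36M peak. H3.3K36M there was near the median of all used bins, 3.004 RPM, while H3.3WT was well above its own median of 2.77 RPM. On both sides the contrast was smaller: the 50 kb before had 2.97 RPM in H3.3K36M cells against 5.22 RPM in H3.3WT cells, and the 50 kb after had 2.87 RPM in H3.3K36M cells against 4.13 RPM in H3.3WT cells.

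The run chr15:42750001-42880000, 130 kb long, had 4.47 RPM in H3.3K36M cells against 12.3 RPM in H3.3WT cells, 2.75-fold lower. The run chr15:54060001-54160000, 100 kb long, had 4.96 RPM in H3.3K36M cells against 12.6 RPM in H3.3WT cells, 2.53-fold lower. All 5 longest low runs stood in bins rich in tagged H3.3 in the WT line. The longest high run, chr15:92110001-92140000, had 5.37 RPM in H3.3K36M cells against 1.71 RPM in H3.3WT cells, 3.14-fold higher (2.70 to 3.65). In contrast to the low runs, it lay in bins poor in H3.3WT. Since H3.3WT is the denominator of the ratio that picks both kinds of run, this contrast is partly built in.

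The H3.1 lines rarely differed 2-fold along the chromosome, but their ratio was not even. Its SD over windows was 0.14, below the 0.33 of the H3.3 ratio. That H3.1 value lay near the upper end of the other chromosomes, which had 0.07 to 0.15. Windows ran from -0.59 to 0.34 on the log2 scale. Of the chromosome's own bins, 11 or 0.112% were at least 2-fold lower in H3.1K36M than in H3.1WT and 0 were higher. All used bins had 0.064% lower and 0.0122% higher. All 11 lay in chr15:43420001-43590000, where H3.1 had 3.69 RPM in H3.1K36M cells against 7.74 RPM in H3.1WT cells, 2.10-fold lower in H3.1K36M (2.00 to 2.20). H3.3 in the same 170 kb had 5.83 RPM in H3.3K36M cells against 12.7 RPM in H3.3WT cells, 2.18-fold lower (2.10 to 2.26). In this region both K36M libraries were about equally lower than their WT libraries.

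More broadly, the H3.1 ratio had a bin median relative to all used bins of -0.09 in chr15:40000001-57000000 and 0.06 in the rest of the chromosome. Of the interval's 17 windows 13 were below the genome's window median for H3.1, and of the other 83 windows 21 were. Over the 100 windows the H3.1 and H3.3 ratios had an r of 0.33 and a rho of 0.23. Without the interval r was 0.04. The interval was drawn on the H3.3 ratio, so leaving it out narrows the range of that ratio. A lower r is then partly built in, and nothing is read from it. Over all windows of each other chromosome r ran from -0.08 to 0.52. The 2 K36M lines can also differ from the WT lines in DNA copy number, and with input libraries not used here this cannot be told apart from histone placement.

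The distal end stood apart in H3.1 more than in H3.3. In the 33 windows from chr15:70000001 on, the H3.1 ratio was 0.15 on the log2 scale and 1 window lay below the genome's median. In the 34 proximal windows it was -0.01 with 15 below, and in the 33 middle windows -0.06 with 18 below. The H3.3 ratio was -0.22 in the distal, -0.23 in the proximal and -0.44 in the middle windows. These windows held 64, 99 and 405 low bins in the same order, or 1.99%, 2.98% and 12.5% of their bins. Over all used bins the share was 1.81%, so the distal share was near that of the genome. The shift of the summed H3.3 ratio thus reached both ends of the chromosome, with the deepest part and most low bins between.

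Each H3.3 library was also set against the H3.1 library of the same state. Relative to all used bins, the median log2 ratio of H3.3 to H3.1 was -0.02 in the K36M lines and 0.39 in the WT lines. In the K36M lines 8.32% of the bins had at least 2-fold more H3.3 than H3.1 and 3.32% had 2-fold less, where all used bins had 8.18% and 3.29%. In the WT lines 17.7% had 2-fold more and 3.80% 2-fold less, where all used bins had 10.3% and 16.8%. Over all used bins the chromosome's ratio of H3.3 to H3.1 was thus average in the K36M lines and high in the WT lines. Among bins at or above the median signal the values were -0.23 in the K36M lines and 0.0222 in the WT lines, so which state stands apart from the genome is exchanged by that filter, the WT lines over all bins and the K36M lines over the stronger ones. The K36M value was the lower under both. Chromosome 11 was higher in both states, at 0.13 in the K36M lines and 0.42 in the WT lines. The level itself was above average on chromosome 15 in both K36M libraries. Its median bin held 3.39 RPM (H3.3K36M) and 4.17 RPM (H3.1K36M), where the medians of all used bins were 3.004 and 3.64 RPM.

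In chr15:40000001-57000000 the bin median of the H3.3 to H3.1 ratio, relative to all used bins, was -0.02 in the K36M lines and 0.58 in the WT lines. In the rest of the chromosome it was -0.03 in the K36M lines and 0.34 in the WT lines. From summed RPM, with no subtraction, the log2 ratios inside were -0.04 in the K36M lines and 0.47 in the WT lines, and outside 0.06 in the K36M lines and 0.35 in the WT lines. By sums the segments thus differed by about as much in either state, in opposite directions, and by medians mostly in the WT lines. Both comparisons share libraries with the ratio that placed the interval, so they describe it from another side.

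**Figure D3:**
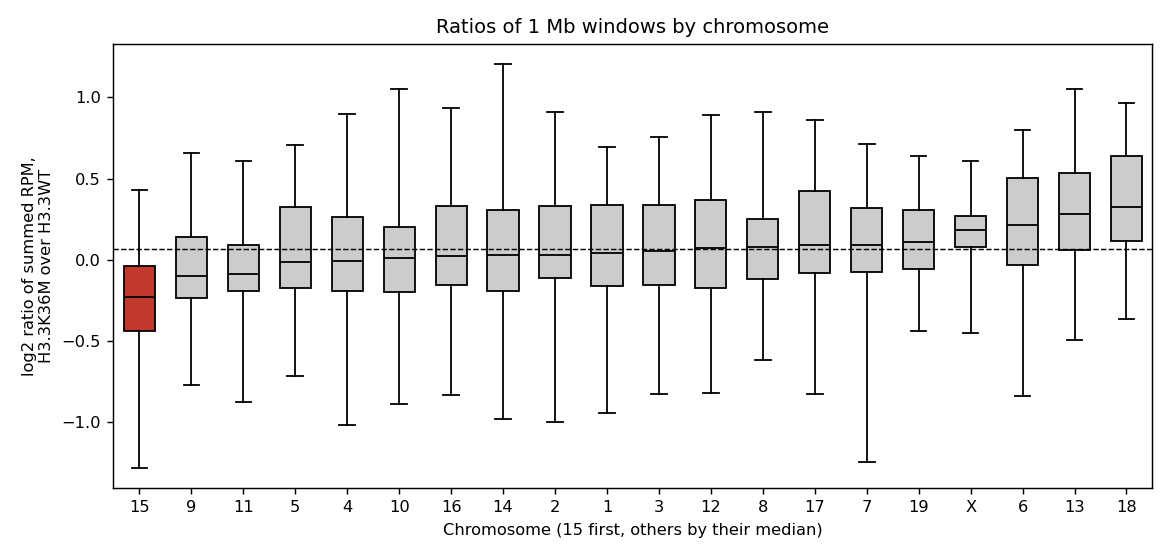
Log2 ratio of summed RPM, H3.3K36M over H3.3WT, in the 1 Mb windows of each chromosome, with chromosome 15 first and the others by their median; boxes are quartiles, whiskers run from the lowest to the highest window, and the dashed line is the median of all windows, 0.06. Chromosome 15 has its median at -0.23, its highest window at 0.43 and its lowest at -1.28, and its box overlaps those of other chromosomes.

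Peaks of H3.3K36M were dense on chromosome 15 in spite of the low ratio. The authors' list placed 6.03% of its peaks there, or 5.14 per Mb of used bins, next to 5.99 per Mb on chromosome 19, and the other chromosomes reached down to 1.06 on X. The median peak was 2.4 kb long, where all peaks of the list had 2.0 kb, and 57 peaks or 11.3% were at least 10 kb long, against 6.79% in the whole list. Bins that overlap a peak made up 6.93% of the chromosome's bins and 4.25% of all used bins. Peaks of the H3.3WT line were not used here, so the list says where H3.3K36M is enriched and not where it differs.

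Bins with a peak held few of the low bins. Their median was 10.1 RPM in H3.3K36M cells against 11.8 RPM in H3.3WT cells, with 4.31 RPM in H3.1K36M cells against 4.39 RPM in H3.1WT cells. Their median log2 ratio was -0.15, and that of the other bins of the chromosome -0.20. Of 681 peak bins, 10 or 1.47% were low, and of the bins without a peak 558 or 6.11%. Peaks were called in the H3.3K36M line, so the choice of bins by peaks favours bins high in it and nothing is read from these shares. On the other chromosomes the peak bins' median ran from 0.03 to 0.45, so the shift of chromosome 15 was present in peak bins too.

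The longest peaks had nearly the same level in both H3.3 lines. The 85.8 kb peak chr15:77584601-77670400 had 17.9 RPM in H3.3K36M cells against 17.8 RPM in H3.3WT cells, a ratio of 1.01 (0.977 to 1.04). The 68.8 kb peak chr15:66698401-66767200 had 17.1 RPM in H3.3K36M cells against 18.0 RPM in H3.3WT cells, and the 64.4 kb peak chr15:101183001-101247400 had 16.1 RPM in H3.3K36M cells against 13.9 RPM in H3.3WT cells. Among the 10 longest, the largest difference was at chr15:103114801-103141600, with 15.0 RPM in H3.3K36M cells against 20.7 RPM in H3.3WT cells, 1.38-fold lower (1.31 to 1.46). None of the 10 longest peaks reached the 2-fold difference of the low runs, though a list called in H3.3K36M favours regions high in that line.

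Windows with more peaks had the lower ratio, as rich windows did. The 21 windows without a peak had a median log2 ratio of 0.11, the 37 with 1 to 5 peaks -0.23 and the 42 with at least 6 peaks -0.30. Of the last, 41 lay below the genome's window median. The window with the most peaks, chr15:77000001-78000000, held 18 and had 9.23 RPM in H3.3K36M cells against 10.3 RPM in H3.3WT cells. The ratio and the peaks share the H3.3K36M library, so this order is a description.

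The 13 H3.1K36M peaks were gathered in the distal part. They make up 17.8% of that list, start at chr15:74976401 at the earliest and are 1 to 13.2 kb long, the longest at chr15:101786001-101799200. Of the 13, 3 overlap an H3.3K36M peak and 8 lie within 10 kb of one. The bins that hold them had a median of 10.5 RPM in H3.1K36M cells against 10.8 RPM in H3.1WT cells, so H3.1WT was as high there. In H3.3 the ratio was below 1 at 12 of them, for example 16.0 RPM in H3.3K36M cells against 24.3 RPM in H3.3WT cells at chr15:103081801-103084800, 1.52-fold lower (1.38 to 1.68). At others the counting interval included 1, as at chr15:77491801-77496600 with a ratio of 0.998 (0.854 to 1.17). A ratio below 1 was common on the chromosome. It was measured in 76 of the 100 windows, and at 351 H3.3K36M peaks against 144 with a ratio above 1. The median H3.3 log2 ratio at the 13 peaks was -0.27, near the -0.22 of the windows from chr15:70000001 on.

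The bin chr15:74910001-74920000 had the highest signal of the chromosome in all 4 libraries, with 143 RPM in H3.3K36M, 114 in H3.3WT, 133 in H3.1K36M and 109 in H3.1WT. Signal there was thus high whichever histone carried the tag. Input libraries were not used here, so whether input is high there too was not tested. The window that holds the bin, chr15:74000001-75000000, had an H3.3 log2 ratio of -0.18 from summed RPM. The median of its bins was -0.29.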

How the data were processed

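The data are 4 HA ChIP-seq libraries, 1 per C3H10T1/2 line, grouped by the genotype and description fields. The authors deposited RPM per genomic bin and lists of peak positions. The aligner Bowtie 1.0.0 and the build mm9 are named per the submitters' processing notes; bin counting, duplicate removal, peak caller, threshold and control are not given in the sources used here. Input libraries and WT peaks were not used here. Of the RPM values deposited by the authors, 100% in every column were whole multiples of 1 step within 0.01 of a read, so reads were recovered. Only the table's 10 kb bins were used, and its wider bins, 110 of them on chromosome 15, were left out so that all bins have the same width. Peak positions lie on a 200 bp grid, with no score per peak, and coordinates are 1-based in mm9.

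Log2 ratios of bins add 0.1 RPM, which understates changes of low bins. Ratios of windows and regions are ratios of summed RPM with exact (Clopper-Pearson) 95% intervals on recovered reads. The libraries carry no molecular identifiers, so reads may repeat a molecule and the intervals cover counting error only. A bin counts as lower or higher at 2-fold. This is a limit on size, because 1 library per group leaves no residual spread to test against. Peaks and bins overlap from 1 base on. Named regions are the 5 lowest and 5 highest windows, the blocks of at least 3 Mb, the 5 longest low and 3 longest high runs, the 10 longest H3.3K36M peaks and all H3.1K36M peaks; the text gives those that show the pattern. The regions chr15:40000001-57000000, chr15:40470001-40950000 and chr15:43420001-43590000 and the highest bin were picked from their values. The chromosome, these rules and the comparisons were chosen with earlier results of these data known. The scripts were tested on simulated data. Computations ran in Python 3.11.15 with scipy 1.17.1, pandas 2.3.3 and numpy 2.4.6, and plots in matplotlib 3.10.9.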

Additional observations from a re-analysis of the deposited data

Results flagged for a closer look

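On chromosome 15 the K36M over WT difference did not run alike in the H3.3 and the H3.1 lines. Relative to all used bins, the median log2 ratio of bins was -0.30 for H3.3K36M over H3.3WT and 0.04 for H3.1K36M over H3.1WT, a difference of -0.34. The result was singled out because the values have opposite signs. The H3.1 value lies within the -0.08 to 0.11 of the other chromosomes, and opposite signs were also measured elsewhere, as on chromosome 11 (-0.14 for H3.3 and 0.04 for H3.1) and chromosome 18 (0.26 and -0.08). The difference was not tested, since each line has 1 library, and the chromosome was picked on the H3.3 contrast.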

How the results depend on the processing

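Of 73 values under alternatives, 40 stayed within the limits set, 33 moved beyond them and 0 reversed direction. The limit was 1.5 times for counts and peak density, the binomial error of the chromosome's median over bins for each ratio (that of the H3.3 ratio, 0.0121, for class differences too), and none for r, where any change counts as a move. No paired analysis was possible because the labels give no replicate numbers and each group has 1 library, and for the same reason no replicate could be left out. The alternatives without chr15:40000001-57000000 and with classes by H3.3 over H3.1 content were added after seeing the data. The H3.3K36M over H3.3WT offset of -0.30 was -0.23 with a pseudocount of 1 RPM, -0.20 for bins at or above the median signal and -0.25 without that interval. The H3.1 offset of 0.04 was 0.0312 at 1 RPM and 0.0609 without the interval. H3.3WT over H3.1WT, 0.39, was 0.29 at 1 RPM, 0.0222 at or above the median signal, 0.34 outside peaks, 0.36 against autosomes, 0.35 with 1% of bins trimmed and 0.34 without the interval. H3.3K36M over H3.1K36M, -0.02, was -0.23 at or above the median signal, -0.0421 outside peaks and -0.0409 when trimmed. The cause of these moves was not tested. The 568 low bins became 272 at 1 RPM, 2131 at 1.5-fold and 226 without the interval, and the 53 high bins 18 at 1 RPM and 393 at 1.5-fold. Below the genome's window median lay 152 of 201 windows of 500 kb and 44 of 51 windows of 2 Mb. These are 75.6% and 86.3%, where windows of 1 Mb had 77%. Both are among the 33 moves because counts were compared although the number of windows differs. The median class difference of -0.23 was -0.14 with classes by H3.3WT, -0.30 by H3.3K36M, -0.26 by H3.3 over H3.1, -0.16 at 1 RPM and -0.18 without the interval. The r of ratio with level, -0.49, was -0.66 with the H3.3WT level, -0.25 with the H3.3K36M level, and -0.50, -0.51 and -0.58 under the other window sizes and without the interval, with a rho of -0.49. Peaks of at least 2 kb gave 3.004 per Mb, where all peaks gave 5.14. Scaling to the median of bin ratios shifted all bins by -0.10, and 822 bins of chromosome 15 were then lower and 41 higher. A median bin of chromosome 15 held 131 reads in H3.3K36M and 196 in H3.3WT, so single bins are less precise than windows.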
